A study of Homo sapiens with 21 samples.

Results

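The genes that encode the proteins of the cytosolic ribosome were followed across 21 poly(A) RNA sequencing libraries of IMR90 cells, fibroblasts of an established human lung line. Members were chosen by symbol: RPL or RPS and a number with an optional A or X, plus RPLP0, RPLP1, RPLP2 and RPSA. Of the 16383 listed genes, 77 matched, and 73 of them had a mean normalised read count of at least 100 over the 21 libraries and were kept, 28 of the small and 45 of the large subunit. This rule uses no measured difference between groups, but it was chosen with earlier results of these data known. The libraries formed 7 groups of 3. One group was Proliferating cells with no treatment. The other groups were irradiated to make them senescent, transfected on days 4 and 7 after irradiation with siRNA at 5 nM using DharmaFECT, and harvested on day 10. They received non-targeting siRNA number 3 (NT3), non-targeting siRNA number 4 (NT4), or siRNA against CCND1, against CDK4, against CDK6, or against CDK4 and CDK6 together (the dual knockdown). The labels give the genotype of every library as WT, and they give no siRNA sequence. Irradiation and transfection both separate the proliferating cells from all other groups and cannot be told apart here. The labels do not say that the 3 libraries of a group came from separate cultures, so p-values measure the spread between these libraries.

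The cytosolic ribosome joins a small subunit, which reads the messenger RNA, to a large subunit, which forms the peptide bond, and most of its proteins are present in equal number. Most of their messenger RNAs begin with a 5′ terminal oligopyrimidine (TOP) tract, a cytosine followed by an unbroken run of pyrimidines, through which the kinase mTORC1 and the RNA-binding protein LARP1 set their translation and stability together with those of translation factors. Synthesis of ribosomal proteins is one of the large costs of a growing cell. Free ribosomal proteins such as RPL5 and RPL11 bind MDM2 and so stabilise p53, a route by which faulty ribosome assembly can feed into arrest and senescence. Cyclin D1 (CCND1) is the partner of the kinases CDK4 and CDK6, which drive entry into S phase.

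The starts of some of the members described below are shown first, as examples of starts with a TOP tract and of 1, RPS4X, without it. Each window holds 15 bases before and 15 bases from the RefSeq start (GRCh38.p14), written 5′ to 3′ on the coding strand. Capitals mark a TOP tract, defined as a C within 3 bases of the start followed by at least 4 bases that are all C or T, with only the coding strand searched.
RPL3 (chr22:39319609-39319638, - strand): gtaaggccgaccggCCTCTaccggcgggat
RPL10 (chrX:154398362-154398391, + strand): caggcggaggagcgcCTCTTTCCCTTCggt
RPL10A (chr6:35468386-35468415, + strand): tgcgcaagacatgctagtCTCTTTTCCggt
RPS3A (chr4:151099613-151099642, + strand): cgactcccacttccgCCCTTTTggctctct
RPS16 (chr19:39435935-39435964, - strand): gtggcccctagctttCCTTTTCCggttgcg
RPLP0 (chr12:120201097-120201126, - strand): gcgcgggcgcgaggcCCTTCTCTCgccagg
RPS6 (chr9:19380222-19380251, - strand): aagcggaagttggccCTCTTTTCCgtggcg
RPS19 (chr19:41860240-41860269, + strand): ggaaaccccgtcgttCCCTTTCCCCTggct
RPS28 (chr19:8321481-8321510, + strand): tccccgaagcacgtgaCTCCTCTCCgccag
RPL39 (chrX:119791616-119791645, - strand): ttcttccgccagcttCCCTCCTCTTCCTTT
RPL41 (chr12:56116618-56116647, + strand): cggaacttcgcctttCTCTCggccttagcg
RPS4X (chrX:72277234-72277263, - strand): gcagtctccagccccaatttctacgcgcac
All of these genes except RPS4X held a tract by this definition. Of the 59 members with a RefSeq start window, 49 (83.1%) had a tract in at least 1 window, against 16% of the 27305 genes with a window and 19.5% of the 9397 tested genes with a window. Of 15 translation factor and other TOP genes with a window, 14 (93.3%) had one, while 8 of 41 ribosome assembly factors (19.5%) and 9 of 69 mitochondrial ribosomal proteins (13%) did. The 10 members with a window and no tract were RPL15, RPL17, RPL27, RPL4, RPL6, RPL9, RPS15, RPS26, RPS29 and RPS4X. A match describes the letters at an annotated start and is not a measured start.

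Libraries held 12892442 to 21822152 reads in listed genes, and a kept member had 144 to 26107 reads per library with a median of 5824. The siRNAs lowered their targets. CCND1 was left at 11.8% of its control mean, CDK4 at 8.67%, and CDK6 at 16.4%. In the dual knockdown CDK4 was left at 9.41% and CDK6 at 20.6%, and for each target every knockdown library lay below all 6 control libraries. The fibroblast label held: all 9 fibroblast markers were expressed, with a summed normalised read count of 704380 to 719609 in proliferating and 554367 to 996492 in irradiated libraries. Of 7 epithelial markers, KRT5, KRT14, SFTPC, SFTPB and NKX2-1 stayed below a normalised read count of 10 in every library, as did CDH5 and ERG among 5 endothelial and PTPRC, CD3E and LYZ among the 6 immune markers. The summed immune markers were at 654 to 688 in proliferating and 883 to 1604 in irradiated libraries, of which CD68, a lysosomal protein that is not limited to immune cells, took 650.0 to 684 and 866 to 1588. The summed endothelial markers were at 1762 to 1888 and 2049 to 4508, nearly all of it TEK, and the epithelial sum was at 14.9 to 17.7 and 16.7 to 55.0. The part of these markers in the results was not tested.

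One library stood apart, the third NT3 library. Ribosomal protein genes took 4.13% of its reads against 2.89% and 2.73% in the other NT3 libraries, it had the lowest read total, and the median member lay 0.52 (log2) above its mean over all libraries. Its deviations also ran against coding length: across the 11366 tested genes with a coding length, Spearman's rho of the deviation from the gene's mean with the length was -0.48, against -0.14 to 0.16 in the other 20 libraries. Outliers by Dixon's criterion among the 6 control libraries were counted for members only, with no share over tested genes beside them. For 47 of the 73 members the value of NT3 replicate 3 was such an outlier, in each case the highest. Counts of members and the changes of the members named are therefore given both with all libraries and without NT3 replicate 3, a choice made after the values were seen, and other values are with all libraries unless stated.

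**Figure D1:**
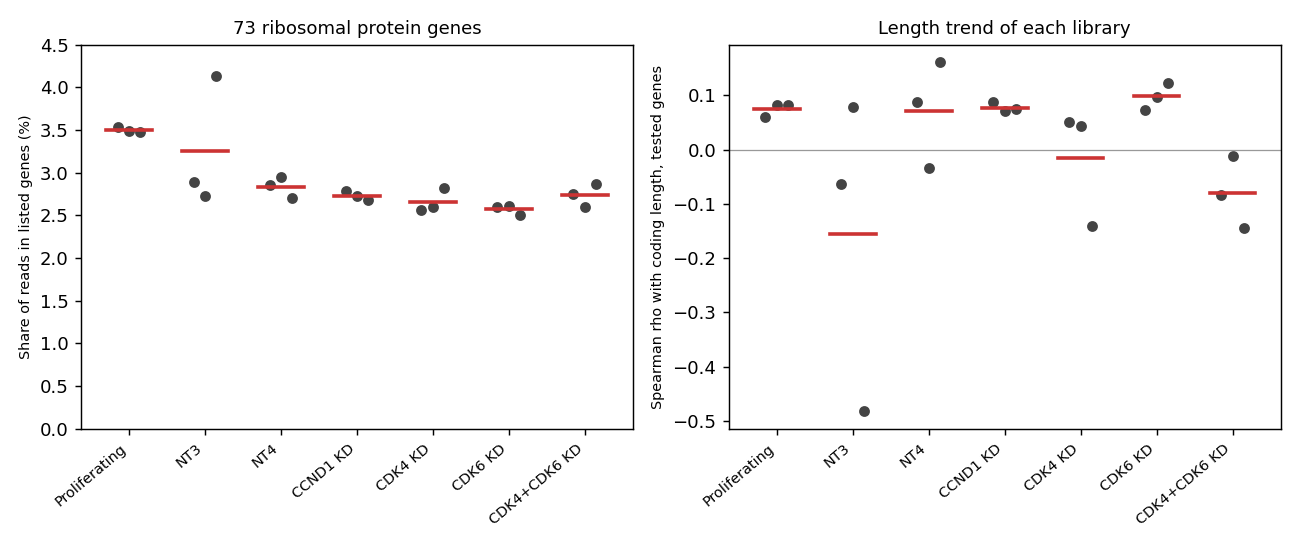
Left, the share of reads of the listed genes that fell on the 73 ribosomal protein genes (y axis, %), and right, Spearman's rho across tested genes of each library's log2 deviation with coding length (y axis). Points are libraries, red lines are means of the 3 libraries of each group (x axis); NT3 replicate 3 lies at 4.13% and -0.48, and proliferating libraries lie at 3.48% to 3.53%.

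Ribosomal protein transcripts made up 3.50% ± 0.0274 (SD, n = 3) of the reads of proliferating cells, 3.48 to 3.53%. The share was 3.25% ± 0.765 with NT3, 2.84% ± 0.126 with NT4, 2.73% ± 0.0559 with CCND1 knockdown, 2.66% ± 0.145 with CDK4 knockdown, 2.57% ± 0.0553 with CDK6 knockdown and 2.74% ± 0.136 with the dual knockdown (SD, n = 3 each). The 17 irradiated libraries other than NT3 replicate 3 lay between 2.51 and 2.95%, all below the proliferating libraries. Neighbouring irradiated groups overlapped in their shares. The small subunit took 36.3% ± 0.123 of the members' reads in proliferating cells and 35.0% ± 0.242 to 36.5% ± 0.272 in the irradiated groups. Shares are relative to each library's total, and fewer cells of a type or less RNA per cell cannot be told apart in such data.

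Per kilobase of coding sequence, levels ran over a wide range although most of the proteins are present in equal number in the ribosome. The highest mean levels were those of RPL37A at 26190 and RPLP1 at 25904 normalised reads per coding kilobase, and RPS26, a protein beside the exit of the messenger RNA channel, was at 5597. RPL17 and RPS10 were far below the others, at 753 and 440.2, and were the members just inside the limit, with mean normalised read counts of 416 and 218. Among those outside it were RPL36A at 47.6, RPS9 at 7.26 and RPS18 at 1.07. RPL17, RPS10 and RPL36A overlap another protein-coding gene on the same strand in GENCODE v44, which for RPL17 and RPS10 is the readthrough gene RPL17-C18orf32 or RPS10-NUDT3, and 9 of the 73 kept members overlap some gene on the same strand. Members have 1 to 133 annotated pseudogenes each, with a median of 14. How reads shared with overlapping genes or copies were assigned is not given in the sources used here, so the levels of all members are uncertain in this respect. Across the 73 members, Spearman's rho of the level per coding kilobase with the number of pseudogenes was -0.22.

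The senescent controls, the mean of NT3 and NT4, were set against proliferating cells to describe the state on which the knockdowns act. Ribosomal protein transcripts were lower in senescent cells: 37 of the 73 members fell and 1, RPS19, rose (limma, adjusted p under 0.05), with a median log2 fold change of -0.23. Of all 11579 tested genes, 36.1% were called lower and 32.6% higher, and the median gene was at -0.03. In sign, 62 members were lower and 11 higher, all read from the same libraries. Without NT3 replicate 3, 62 fell, the 37 among them, and 1, again RPS19, rose, the median was -0.31, with 38.3% lower and 34.7% higher among tested genes. Proliferating and control libraries did not overlap for 14 members that were lower (28.9% of tested genes), and for 54 without that library (33.8%). Centring each library on its median gene, which moved the median of all genes from -0.03 to 0.09, left 23 members lower and 1 higher with a median of -0.12.

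**Figure D2:**
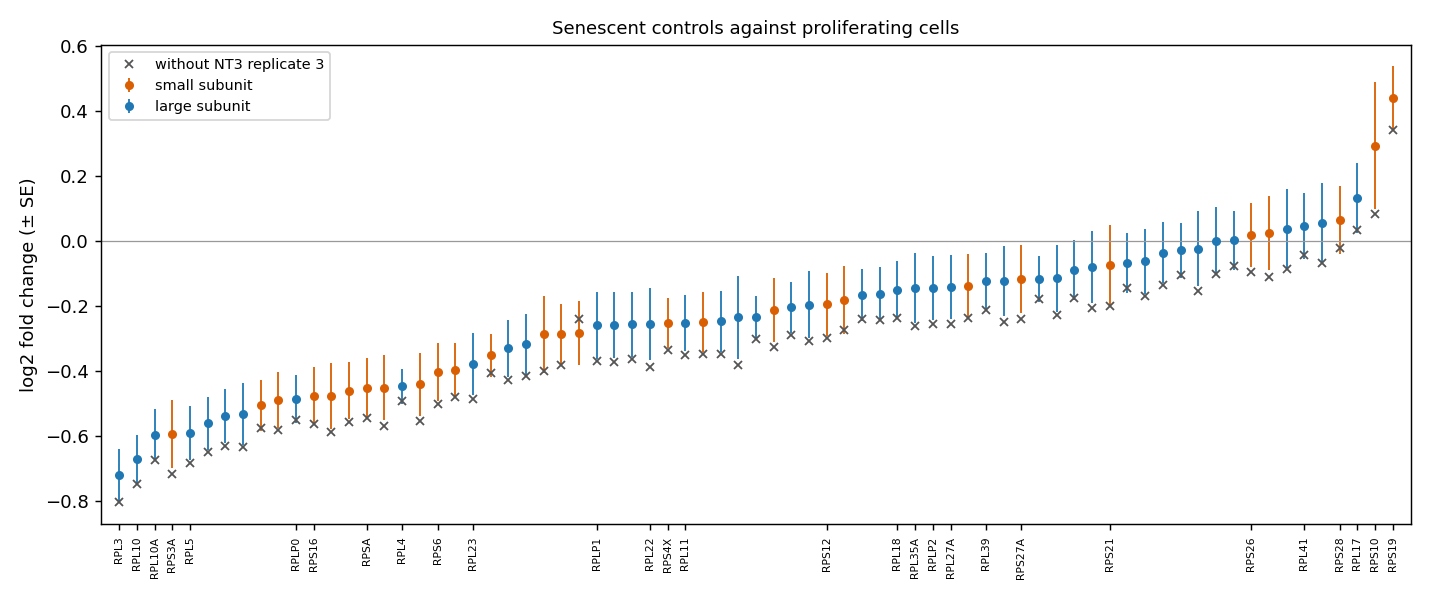
Log2 fold change of each of the 73 members (x axis, ordered) in senescent controls against proliferating cells, with its standard error (bars) and by subunit (colour); only genes described in the text are labelled. Crosses give the value without NT3 replicate 3, which is lower for nearly every member. RPL3 is the lowest at -0.72 and RPS19 the highest at 0.44.

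The 3 largest falls were in the large subunit. RPL3 (Entrez gene 6122, chr22:39312882-39320389 in hg38), which reaches into the peptidyl transferase centre, had normalised read counts of 20421, 20414 and 20028 in the proliferating libraries, 11213, 10590 and 15470 with NT3 and 12628, 12762 and 11835 with NT4. Every control library lay below every proliferating one. For RPL3 the log2 fold change was -0.72 with an SE of 0.08, limma adjusted p = 5.44e-08, and -0.80 without NT3 replicate 3, adjusted p = 3.19e-15. RPL10 (Entrez gene 6134, chrX:154389955-154409168 in hg38), which takes part in the last steps of large subunit maturation, was at 14297, 14390 and 14816 against 8516, 8148 and 11424 and 8950, 9515 and 8431. For RPL10 the log2 fold change was -0.67 with an SE of 0.07, limma adjusted p = 6.21e-08, and -0.75 without NT3 replicate 3, adjusted p = 2.22e-14. Here too the groups did not overlap. RPL10A (Entrez gene 4736, chr6:35468401-35470785 in hg38) was at 8233, 7938 and 8181 against 5179, 4958 and 7020 and 5342, 5391 and 4622. For RPL10A the log2 fold change was -0.60 with an SE of 0.08, limma adjusted p = 6.72e-07, and -0.67 without NT3 replicate 3, adjusted p = 8.88e-13. In all 3 genes NT3 replicate 3 was the highest control library and still lay below the proliferating range.

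RPL5 and RPL11, which form a particle with 5S ribosomal RNA and bind MDM2, both fell. RPL5 was at 12282, 12755 and 11969 in proliferating libraries and at 7762, 7328 and 11006 with NT3 and 7551, 8072 and 7903 with NT4. For RPL5 the log2 fold change was -0.59 with an SE of 0.08, limma adjusted p = 1.63e-06, and -0.68 without NT3 replicate 3, adjusted p = 4.48e-14. RPL11 was at 10202, 9813 and 10080 against 7671, 7443 and 11416 and 8189, 8486 and 7890, so that NT3 replicate 3 lay above the proliferating libraries. For RPL11 the log2 fold change was -0.25 with an SE of 0.09, limma adjusted p = 0.0134, and -0.35 without NT3 replicate 3, adjusted p = 5.8e-09. RPL23, another MDM2-binding protein, changed by -0.38 (SE 0.09, limma adjusted p = 0.00133), and RPL22 by -0.26 (SE 0.11, limma adjusted p = 0.0445); without NT3 replicate 3 they were at -0.49 (limma adjusted p = 1.49e-10) and -0.39 (limma adjusted p = 2.47e-09). The stalk of the large subunit recruits translation factors, and its base RPLP0 fell by 0.49 on the log2 scale (from 22142, 22434 and 23125 to 15920, 15092 and 20367 with NT3 and 15618, 15398 and 14898 with NT4, SE 0.07, limma adjusted p = 4.68e-06, and -0.55 without NT3 replicate 3). Of its partners, RPLP1 was at -0.26 (SE 0.10, limma adjusted p = 0.0313) and RPLP2 at -0.14 (SE 0.10, limma adjusted p = 0.197), so that RPLP2 did not pass the threshold. With NT3 replicate 3 left out, RPLP1 was at -0.37 (limma adjusted p = 2.01e-06) and RPLP2 at -0.26 (limma adjusted p = 1.36e-05). RPL39, a small protein of the exit tunnel, did not pass with all libraries, at -0.12 (SE 0.09, limma adjusted p = 0.216), and passed without that library, at -0.21 (limma adjusted p = 0.000961).

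In the small subunit, 17 of 28 members fell, against 20 of 45 in the large subunit (25 and 37 without NT3 replicate 3). RPS6, the substrate of the S6 kinases, was at 14965, 15399 and 15603 in proliferating libraries, 11516, 10047 and 16265 with NT3 and 11187, 11200 and 10263 with NT4. For RPS6 the log2 fold change was -0.40 with an SE of 0.09, limma adjusted p = 0.000457, and -0.50 without NT3 replicate 3, adjusted p = 1.33e-10. All control libraries but NT3 replicate 3 lay below the proliferating range. RPSA, also known as a laminin receptor, changed by -0.45 (SE 0.09, limma adjusted p = 0.000168), and RPS4X by -0.25 (SE 0.08, limma adjusted p = 0.00657). When NT3 replicate 3 was dropped, these were -0.54 (limma adjusted p = 1.28e-09) and -0.33 (limma adjusted p = 7.21e-08). RPS27A, which is made as a fusion with ubiquitin, was at -0.12 (SE 0.10, limma adjusted p = 0.328) and RPS26 at 0.02 (SE 0.10, limma adjusted p = 0.885), and neither passed the threshold with all libraries. Leaving out NT3 replicate 3, they were at -0.24 (limma adjusted p = 5.43e-05) and -0.10 (limma adjusted p = 0.0491).

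RPS19 (Entrez gene 6223, chr19:41860255-41872925 in hg38), which is needed for maturation of the small subunit's RNA and is mutated in Diamond-Blackfan anaemia, went the other way. Its normalised read counts were 6926, 6655 and 6489 in proliferating libraries, 8924, 8078 and 12713 with NT3 and 8376, 9272 and 7803 with NT4. Every control library lay above every proliferating one. For RPS19 the log2 fold change was 0.44 with an SE of 0.10, limma adjusted p = 0.00043, and 0.34 without NT3 replicate 3, adjusted p = 1.26e-05. It was also above the proliferating range in each library of the CCND1, CDK4 and dual knockdowns, at 8174, 8386 and 7987, 7253, 7405 and 8496 and 8742, 7431 and 8327, while CDK6 knockdown gave 6819, 7741 and 7054, where 1 library overlapped the proliferating range.

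**Figure D3:**
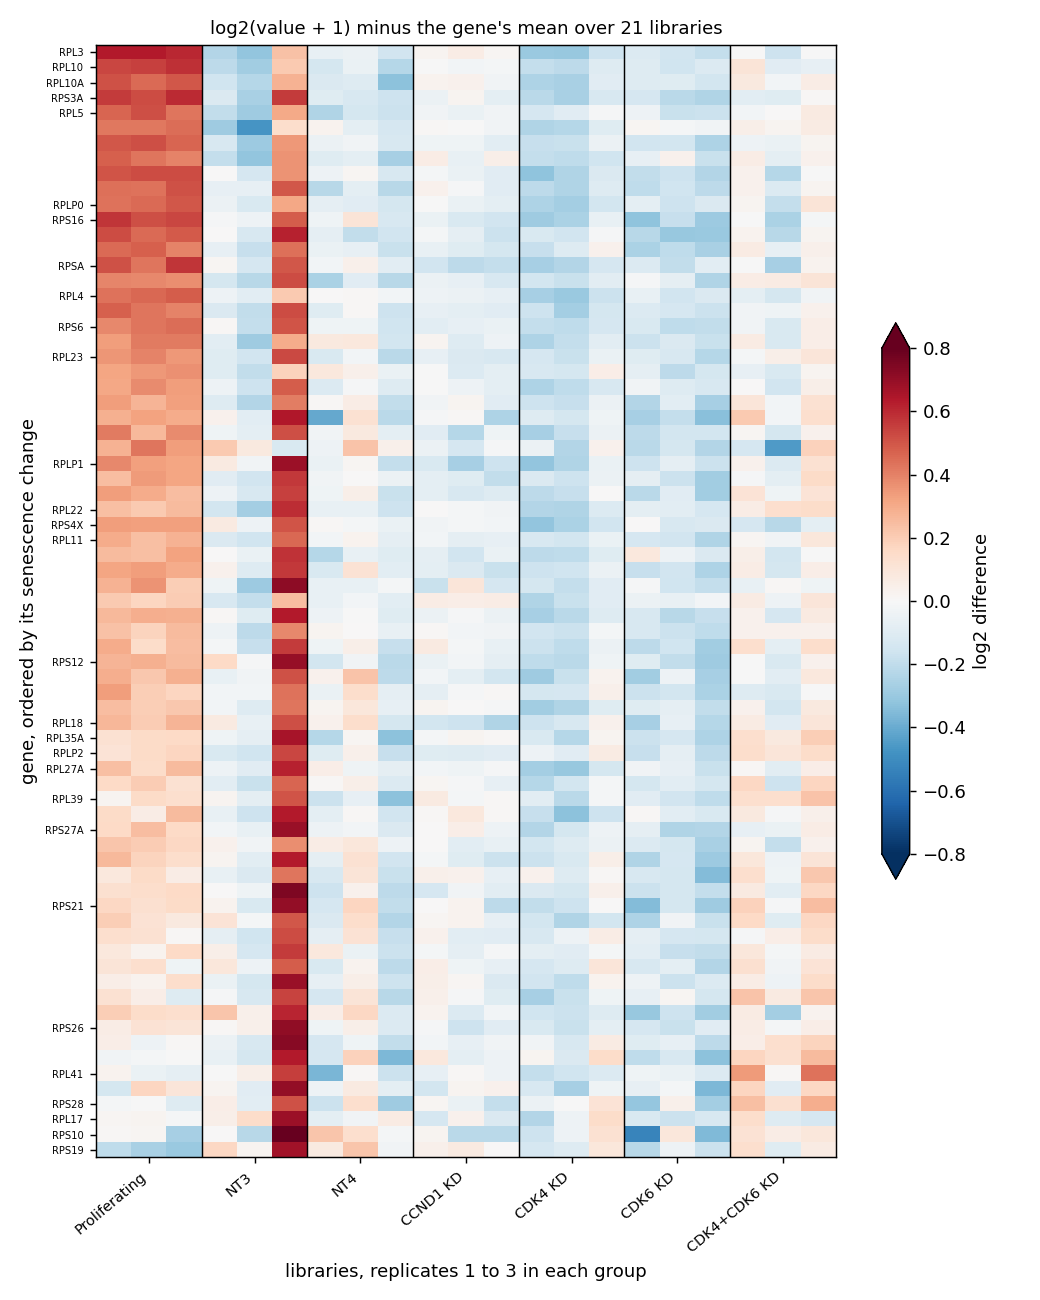
Each of the 73 members (rows, ordered by the change in the senescent controls) in each of the 21 libraries (columns, replicates 1 to 3 of each group). Only genes described in the text are labelled. Colour is log2(value + 1) minus the gene's mean over the libraries, with values beyond 0.8 in either direction drawn in the end colours. The proliferating columns are high for most rows and low for RPS19, and the column of NT3 replicate 3 is high for nearly all rows.

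Members with a long coding sequence had the larger falls. Of the 22 members with a coding length of 600 nucleotides or more, 21 fell, with a median log2 fold change of -0.44. Of the 42 members with 300 nucleotides or more but under 600, 14 fell (median -0.15), and of the 9 with fewer than 300, 2 fell (median -0.07). Other tested genes of the same 3 classes had medians of -0.04, 0.10 and 0.09, and their called shares by class are not given. Without NT3 replicate 3, the medians of the members were -0.52, -0.26 and -0.18, and 22, 35 and 5 members fell. Across the 73 members Spearman's rho of the log2 fold change with coding length was -0.57 (-0.52 without that library), and across the 11366 tested genes -0.11 (-0.05). These correlations describe genes measured in the same libraries. Between the 2 control siRNAs, NT4 against NT3, the members' rho was 0.67 (0.52 without NT3 replicate 3). The libraries' own length trends across tested genes were 0.06 to 0.08 in proliferating and -0.06 to 0.16 in the 5 control libraries other than NT3 replicate 3, and their part in the result was not tested. The members' rho with GC content was 0.04. Members with a TOP tract had a median log2 fold change of -0.16 (n = 49), those with a window and no tract -0.22 (n = 10), and those with no window -0.31 (n = 14). With NT3 replicate 3 left out, these medians were -0.26, -0.30 and -0.40.

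**Figure D4:**
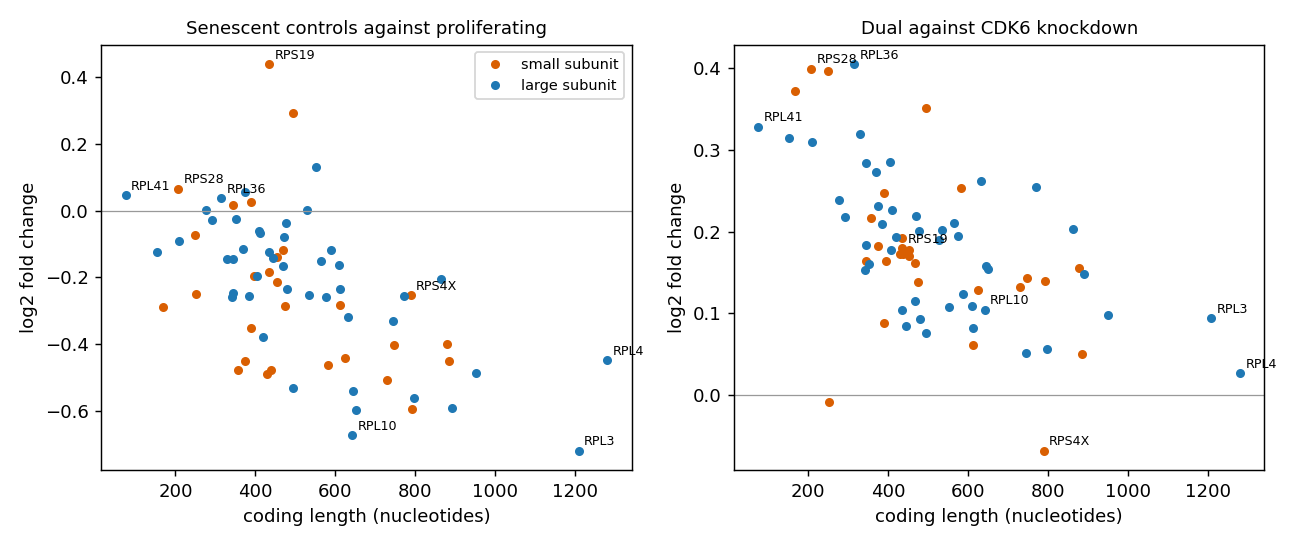
Log2 fold change (y axis) of the 73 members against coding length in nucleotides (x axis), in senescent controls against proliferating cells (left) and in dual against CDK6 knockdown (right). Points are genes, coloured by subunit. Long members lie lowest on both sides, with rho of -0.57 and -0.58, and RPS19 stands above the rest on the left.

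The composition of the ribosomal protein pool was compared by dividing each library by its summed member counts, which removes a shift common to all members. Of the 73 members, 30 took a larger and 18 a smaller share of the pool in the senescent controls than in proliferating cells (limma, adjusted p under 0.05; 62.1% of tested genes were called in either direction on this scale). When NT3 replicate 3 was dropped, the counts were 32 and 20 (76.1%), and with all libraries and the members' median as the scale they were 15 and 21. With the summed counts as the scale, the called share of members was near that of tested genes, and below it without NT3 replicate 3. No share over tested genes is given for the median as the scale. The division shifts genes outside the pool as well, so the share over tested genes includes that shift. RPS19 went from 1.16% ± 0.0359 to 1.92% ± 0.0560 of the pool (SD, n = 3 and 6; log2 change 0.73, limma adjusted p = 1.38e-09). RPL3 went from 3.51% ± 0.0415 to 2.62% ± 0.180 (log2 change -0.42, limma adjusted p = 2.76e-07), and RPL10 from 2.51% ± 0.0494 to 1.93% ± 0.0946 (log2 change -0.38, limma adjusted p = 8.62e-06). Leaving out NT3 replicate 3, the log2 changes of these shares were 0.73, -0.42 and -0.36.

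Other genes of the pathway were counted in the same fit, with 36.1% lower and 32.6% higher among tested genes. Of 22 translation factors and other TOP genes, 12 fell and 1 rose in the senescent controls (median -0.29). HNRNPA1, an RNA-binding splicing protein with a TOP transcript, was at 4622 ± 329 against 11960 ± 135, log2 fold change -1.37, limma adjusted p = 1.82e-15 (here and below means ± SD of normalised read counts, n = 6 controls and 3 proliferating libraries), and RACK1, a scaffold on the small subunit, at 11732 ± 1182 against 15491 ± 274, log2 fold change -0.41, limma adjusted p = 9.9e-06. Of 48 ribosome assembly factors, 29 fell and 9 rose (median -0.25). FBL, the methyltransferase fibrillarin of the nucleolus, was at 1095 ± 249 against 2726 ± 62.5, log2 fold change -1.34, limma adjusted p = 3.65e-10, whereas SBDS, which helps release mature large subunits, rose (3045 ± 377 against 1920 ± 61.9, log2 fold change 0.66, limma adjusted p = 5.73e-10). Of 76 tested mitochondrial ribosomal proteins, 31 fell and 7 rose (median -0.18), shares not far from those of all tested genes for the fall and below them for the rise. Of the 13 protein genes of mitochondrial DNA, 10 rose (median 0.50). EIF4EBP1, an inhibitor of cap-dependent translation that mTORC1 phosphorylates, fell (478 ± 80.9 against 1252 ± 35.0, log2 fold change -1.41, limma adjusted p = 1.15e-09). Among ribosomal protein paralogs outside the symbol rule, RPL39L fell (60.9 ± 12.7 against 298 ± 13.3, log2 fold change -2.30, limma adjusted p = 4.32e-10) and RPS27L, a p53 target, rose (2906 ± 707 against 2121 ± 96.6, log2 fold change 0.43, limma adjusted p = 0.000565). Without NT3 replicate 3, 16 translation factors and TOP genes, 31 assembly factors and 41 mitochondrial ribosomal proteins fell.

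The difference between the 2 control siRNAs in these genes changed with NT3 replicate 3. With all libraries, 9 members were lower with NT4 than with NT3 and 0 higher (limma; at unadjusted p under 0.05, 19 and 0; edgeR 12 and 0, DESeq2 16 and 0), against 13.1% and 14.7% of tested genes, with a median of -0.18. Without that library 1 was lower and 5 (RPL3, RPL7A, RPL14, RPS2 and RPS15A, named after their values were seen) were higher (11.9% lower and 12.8% higher among tested genes), and the median was 0.02. RPS12, a small subunit protein, was called lower both ways: it was at 8371, 7462 and 12185 with NT3 and 6795, 7349 and 6464 with NT4. For RPS12 the log2 fold change was -0.41 with an SE of 0.11, limma adjusted p = 0.00855, and -0.20 without NT3 replicate 3, adjusted p = 0.0185. RPL41, the shortest member, was at -0.38 (SE 0.12, limma adjusted p = 0.0192) and RPL35A at -0.37 (SE 0.13, limma adjusted p = 0.0327), and without NT3 replicate 3 at -0.20 (limma adjusted p = 0.106) and -0.13 (limma adjusted p = 0.197). Spearman's rho of the change with coding length was 0.67 across members and 0.31 across tested genes. Without NT3 replicate 3 these were 0.52 and 0.06. A length relation of this size was thus present between 2 control siRNAs, and its source was not tested.

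With CCND1 knockdown few ribosomal protein transcripts passed the threshold against the mean of both control siRNAs. With all libraries 1 member, RPL18 of the large subunit, fell and 0 rose (limma; at unadjusted p under 0.05, 4 and 0; edgeR 2 and 0, DESeq2 3 and 0), where 14.4% and 16.7% of tested genes did, and the median was -0.07. RPL18 was at 4691, 4626 and 4393 against 5471, 4989 and 7437 with NT3 and 5333, 5725 and 4722 with NT4. For RPL18 the log2 fold change was -0.28 with an SE of 0.09, limma adjusted p = 0.0216, and -0.20 without NT3 replicate 3, adjusted p = 0.0105. All 3 knockdown libraries lay below the 6 controls. With NT3 replicate 3 left out, 10 members rose and 3 (RPL18, RPLP1 and RPSA) fell, with a median of 0.02 and 16.3% lower and 19.6% higher among tested genes. Quantile normalization without that library instead gave 1 higher and 18 lower with a median of -0.07, so the sign of the members' median depends on the scaling. No share over tested genes is given for that fit. In the same comparison 14 of 48 assembly factors fell and 2 rose (14 and 3 without NT3 replicate 3).

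With CDK4 knockdown 7 members fell and 0 rose with all libraries (limma; at unadjusted p under 0.05, 22 and 0; edgeR 8 and 0, DESeq2 12 and 0), against 7.55% and 8.46% of tested genes, with a median of -0.17. When NT3 replicate 3 was dropped, the same 7 were among 12 that fell, 1, RPL5, rose, the median was -0.06, with 11.3% lower and 12% higher among tested genes. RPS4X, a small subunit protein encoded on the X chromosome, was at 9270, 9677 and 10387 against 12108, 11233 and 16381 with NT3 and 11606, 11416 and 11124 with NT4, below all 6 controls. For RPS4X the log2 fold change was -0.32 with an SE of 0.08, limma adjusted p = 0.0066, and -0.24 without NT3 replicate 3, adjusted p = 0.000121. RPL27A was at 5854, 5732 and 6408 against 6870, 6638 and 10830 and 7330, 6916 and 6733, again below all controls. For RPL27A the log2 fold change was -0.31 with an SE of 0.10, limma adjusted p = 0.0348, and -0.20 without NT3 replicate 3, adjusted p = 0.00163. With all libraries 3 of 48 assembly factors fell and 1 rose (3 and 3 without NT3 replicate 3).

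With CDK6 knockdown 17 members fell and 0 rose with all libraries, 10 of them in the small and 7 in the large subunit (limma; at unadjusted p under 0.05, 35 and 0; edgeR 19 and 0, DESeq2 29 and 0), against 20.8% and 21.1% of tested genes, so the share of members was near that of all genes. The median was -0.19. Leaving out NT3 replicate 3, 22 fell, 16 of the 17 among them, 2, RPL7A and RPL12 (named after their values were seen), rose, and the median was -0.10, with 23.2% lower and 23.7% higher among tested genes. With that library left out, scaling each library to the total of its listed genes gave 50 lower and a median of -0.16, with no share over tested genes given. RPS19, the member that had risen in senescent cells, was at 6819, 7741 and 7054 against 8924, 8078 and 12713 with NT3 and 8376, 9272 and 7803 with NT4, below all 6 controls. For RPS19 the log2 fold change was -0.33 with an SE of 0.10, limma adjusted p = 0.00888, and -0.24 without NT3 replicate 3, adjusted p = 0.00189. RPS21 was at 1686, 1939 and 1762 against 2183, 1966 and 3485 and 1949, 2410 and 1867, which overlap. For RPS21 the log2 fold change was -0.33 with an SE of 0.12, limma adjusted p = 0.0346, and -0.21 without NT3 replicate 3, adjusted p = 0.0248. MDM2-binding RPL5 was at -0.01 (SE 0.08, limma adjusted p = 0.942) and RPL3 at -0.06 (SE 0.08, limma adjusted p = 0.601), so neither of these members, which had fallen in senescent cells, passed the threshold here. Without NT3 replicate 3, they were at 0.08 (limma adjusted p = 0.1) and 0.03 (limma adjusted p = 0.62).

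Most ribosome assembly factors fell with CDK6 knockdown: 32 of 48 fell and 1 rose, with a median of -0.25 (34 fell, -0.22, without NT3 replicate 3). NOP56 and NOP58, core proteins of the box C/D particles that guide methylation of ribosomal RNA, were at 1020 ± 58.6 against 1511 ± 131, log2 fold change -0.56, limma adjusted p = 1.58e-07 (means ± SD, n = 3 knockdown and 6 control libraries), and at 719.7 ± 38.0 against 1122 ± 276, log2 fold change -0.61, limma adjusted p = 1.31e-05. PES1, which acts in large subunit maturation, was at 1202 ± 38.6 against 1723 ± 255, log2 fold change -0.51, limma adjusted p = 4.76e-06. Of 22 translation factors and TOP genes, 6 fell and 2 rose, and of 76 mitochondrial ribosomal proteins 28 fell. MYC, which activates many ribosome genes, was at 518 ± 61.7 against 727 ± 147, log2 fold change -0.47, limma adjusted p = 0.00198. MYC, NOP58 and PES1 also differed between the control siRNAs themselves. Their log2 fold changes of NT4 against NT3 were -0.48 (limma adjusted p = 0.00922), -0.44 (limma adjusted p = 0.00309) and -0.22 (limma adjusted p = 0.0439). NOP56 did not pass the threshold there, at -0.05 (limma adjusted p = 0.589).

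CDK6 and CDK4 knockdown were compared directly, with no shared controls. With all libraries no member differed past the threshold by limma, edgeR or DESeq2 (1 was higher and 0 lower at an unadjusted p under 0.05), with 17.3% lower and 17.5% higher among tested genes, and the median was -0.04. With NT3 replicate 3 left out, which enters this comparison only through the spread that all groups share, 7 members were higher and 5 (RPLP2, RPL36, RPL38, RPS7 and RPS20, all but RPLP2 named after their values were seen) lower with CDK6 knockdown (21.7% lower and 22.3% higher among tested genes). RPS4X was among those higher, at 11574, 10580 and 10654 against 9270, 9677 and 10387 (log2 fold change 0.16, limma adjusted p = 0.0056 without that library, 0.16 SE 0.09, limma adjusted p = 0.174 with it).

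With the dual knockdown few members passed the threshold against the controls as long as all libraries were used. In that fit 1 member rose and 1 fell (limma; at unadjusted p under 0.05, 3 and 2; edgeR 1 and 1, DESeq2 0 and 2), where 22.5% and 21.5% of tested genes did, and the median was 0.00. RPL41 (Entrez gene 6171, chr12:56116590-56117967 in hg38) rose: it was at 2232, 1779 and 2386 against 1764, 1825 and 2589 with NT3 and 1370, 1775 and 1567 with NT4, which overlap. For RPL41 the log2 fold change was 0.25 with an SE of 0.10, limma adjusted p = 0.0489, and 0.34 without NT3 replicate 3, adjusted p = 0.000311. The call was lost with DESeq2, quantile normalization, scaling to the listed total and NT3 alone as control. RPS4X (Entrez gene 6191, chrX:72255679-72277248 in hg38) fell, at 10502, 9878 and 10910, below all 6 controls. For RPS4X the log2 fold change was -0.23 with an SE of 0.08, limma adjusted p = 0.022, and -0.14 without NT3 replicate 3, adjusted p = 0.00511. When NT3 replicate 3 was dropped, 32 members rose and 2 (RPS4X among them) fell, with a median of 0.10 (24.6% lower and 26.7% higher among tested genes). But quantile normalization without that library gave 8 higher and 17 lower with a median of -0.03. The sign of the members' median thus turned with the scaling, and no share over tested genes is given for the quantile fit. In the dual knockdown the 10 genes with the highest counts held 8.52 to 9.61% of a library's reads, and they held 7.16 to 8.48% elsewhere, and the part of this in the result was not tested. Of the 48 assembly factors, 25 fell and 1 rose (23 and 4 without NT3 replicate 3).

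**Figure D5:**
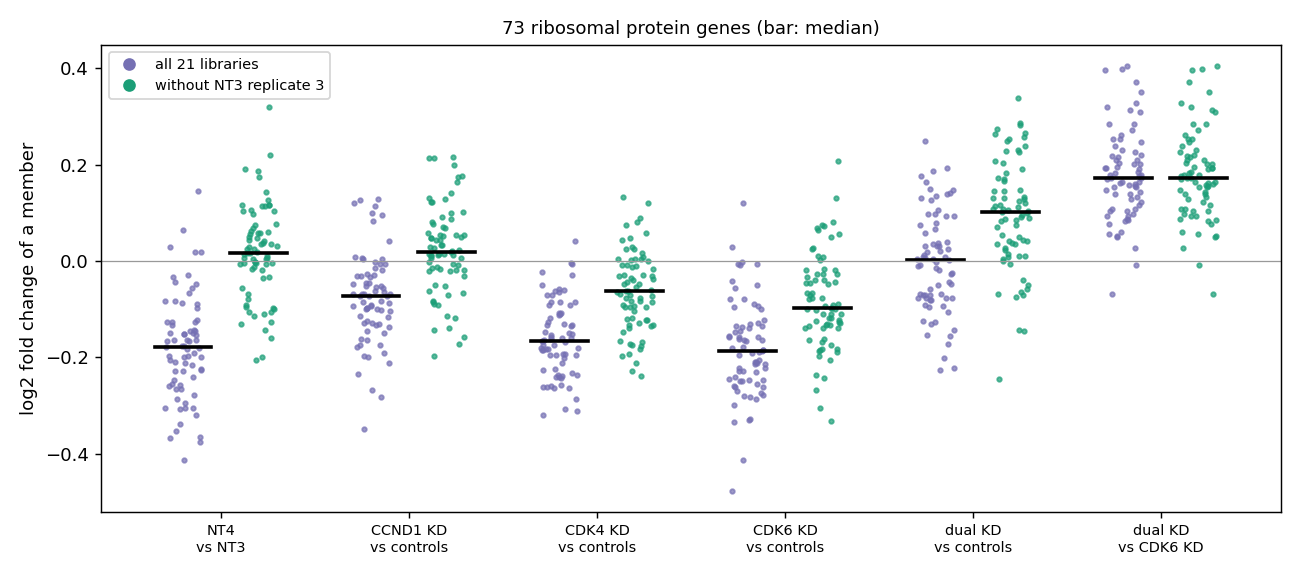
Log2 fold change (y axis) of each of the 73 members in 6 comparisons (x axis), with all libraries (purple) and without NT3 replicate 3 (green); points are genes and bars medians. Leaving that library out raises the median of NT4 against NT3 from -0.18 to 0.02 and of every knockdown against the controls, and leaves dual against CDK6 knockdown at 0.17.

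Set against CDK6 knockdown alone, 71 of 73 members had a higher mean in the dual knockdown, but few passed the threshold with all libraries. The signs come from the same 3 dual and 3 CDK6 libraries and are not separate observations. The 2 groups' values were apart for 40 members, all higher in the dual knockdown, with no overlap between the 3 dual and the 3 CDK6 libraries (18.6% of tested genes), and the median log2 fold change was 0.17, against 0.00 for all tested genes. With all libraries 2, RPS28 and RPL39, passed the threshold and 0 were lower (limma; at unadjusted p under 0.05, 17 and 0; edgeR 2 and 0, DESeq2 6 and 0), with 6.94% lower and 6.05% higher among tested genes. The called share of the members, 2.74%, was below that of tested genes, and 0 members passed with irradiated libraries alone, with scaling to the listed total or with the replicate block. Leaving out NT3 replicate 3, which enters only through the shared spread, 46 were higher (11.8% lower and 12.9% higher among tested genes), and with the 2 groups fitted alone 42. The size depends on the scaling: quantile normalization gave 0 calls with all libraries and 22 without that library, with medians of 0.12 and 0.12. For the groups fitted alone and for quantile normalization, no share over tested genes is given.

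RPS28 (Entrez gene 6234, chr19:8321158-8323340 in hg38), a small protein of the small subunit, was at 3136, 2902 and 3246 in the dual and 2140, 2734 and 2202 in the CDK6 knockdown, with no overlap. For RPS28 the log2 fold change was 0.40 with an SE of 0.12, limma adjusted p = 0.0317, and 0.40 without NT3 replicate 3, adjusted p = 0.00108. RPL39 (Entrez gene 6170, chrX:119786504-119791630 in hg38) was at 2736, 2733 and 2923 against 2338, 2245 and 2166, also without overlap. For RPL39 the log2 fold change was 0.31 with an SE of 0.10, limma adjusted p = 0.0438, and 0.31 without NT3 replicate 3, adjusted p = 0.000294. RPLP2 of the stalk was at 5361, 5182 and 5369 against 4266, 4614 and 4196. For RPLP2 the log2 fold change was 0.28 with an SE of 0.11, limma adjusted p = 0.105, and 0.28 without NT3 replicate 3, adjusted p = 0.000126. RPS4X was 1 of the 2 members that were lower in mean, beside RPS27, at 10502, 9878 and 10910 against 11574, 10580 and 10654. For RPS4X the log2 fold change was -0.07 with an SE of 0.09, limma adjusted p = 0.677, and -0.07 without NT3 replicate 3, adjusted p = 0.307. As with senescence, the change ran against coding length: the medians were 0.31, 0.18 and 0.12 for members under 300, of 300 up to 600 and of 600 or more nucleotides, and 0.13, 0.08 and -0.01 for other genes. Spearman's rho with coding length was -0.58 across members and -0.22 across tested genes, and the libraries' own length trends were -0.14 to -0.01 in the dual and 0.07 to 0.12 in the CDK6 knockdown. NT4 against NT3 had a rho across members of similar size, at 0.67, so such a relation was not particular to this comparison. The part of the libraries' length trends in the result was not tested.

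Whether both single effects added up to the dual effect was tested as an interaction, the dual effect minus the CDK4 effect and minus the CDK6 effect, a comparison added after the single and dual effects had been seen. All 73 departures were positive in sign, with a median of 0.34 (log2), and 2, RPL4 of the large subunit among them, passed the threshold with all libraries and 0 were negative past it (limma; at unadjusted p under 0.05, 53 and 0; edgeR 4 and 0, DESeq2 9 and 0), with 3.71% lower and 2.63% higher among tested genes. With all libraries the called share of members was near that of tested genes. Members were measured in the same libraries, so their signs are not separate observations. Without NT3 replicate 3, 38 passed, with a median of 0.24 (6.17% lower and 6.23% higher among tested genes). RPL4 departed by 0.28 (SE 0.08, limma adjusted p = 0.0435), and without that library by 0.24 (limma adjusted p = 0.00395). The controls enter this measure once, so a control library that is high in these genes raises every departure, and with NT4 alone as control 0 passed with a median of 0.26. The departures ran against coding length, with Spearman's rho of -0.46 across members and -0.29 across tested genes (-0.38 and -0.15 without NT3 replicate 3). Members under 300, of 300 up to 600 and of 600 or more nucleotides had medians of 0.40, 0.37 and 0.29. Other genes of these classes had 0.14, 0.11 and -0.02. The part of length in the departures was not tested.

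Compared with proliferating cells, ribosomal protein transcripts were lower in the dual knockdown. In it 36 members were lower and 2, RPL41 and RPS19, higher with all libraries (limma), against 32.9% and 32.7% of tested genes, and 49 lower and 5 higher (RPL36, RPS24 and RPS28 added, named after their values were seen) without NT3 replicate 3 (36% lower and 35.5% higher among tested genes), with a median of -0.24. This comparison shares the proliferating libraries with that of the controls. Here too the change ran against coding length, with Spearman's rho of -0.64 across members and -0.09 across tested genes. Members under 300, of 300 up to 600 and of 600 or more nucleotides had medians of 0.01, -0.22 and -0.45. Other genes of these classes had 0.16, 0.13 and -0.02. The part of length in this result was not tested. RPL3 was at 13124, 11723 and 13140. For RPL3 the log2 fold change was -0.68 with an SE of 0.09, limma adjusted p = 1.13e-06, and -0.68 without NT3 replicate 3, adjusted p = 8.41e-13. RPS16, a small subunit protein, was at 4423, 3715 and 4377 against 6593, 6328 and 6423 (log2 fold change -0.63 with an SE of 0.10, limma adjusted p = 1.45e-05, and -0.63 without NT3 replicate 3, adjusted p = 1.75e-09), and RPS3A at 6950, 6882 and 7428 against 10855, 10591 and 11154. For RPS3A the log2 fold change was -0.62 with an SE of 0.12, limma adjusted p = 0.00013, and -0.62 without NT3 replicate 3, adjusted p = 5.78e-12. None of these dual libraries reached the proliferating range. RPS19 stayed above it at 8742, 7431 and 8327 (log2 fold change 0.28 with an SE of 0.11, limma adjusted p = 0.0312, and 0.28 without NT3 replicate 3, adjusted p = 0.000421), and RPL41 was at 2232, 1779 and 2386 against 1797, 1700 and 1677. For RPL41 the log2 fold change was 0.30 with an SE of 0.12, limma adjusted p = 0.0301, and 0.30 without NT3 replicate 3, adjusted p = 0.00177. In shares of the pool, 26 members were higher and 14 lower than in proliferating cells (59.5% of tested genes in either direction). Without NT3 replicate 3 these counts were 28 and 18, and with the members' median as the scale 15 and 18. For these settings no share over tested genes is given, so the counts cannot be set against it. With the summed counts as the scale and all libraries, called members were a smaller share than called genes among tested genes. RPL41 went from 0.298% ± 0.0102 to 0.453% ± 0.0426 of the pool (SD, n = 3; log2 change 0.60, limma adjusted p = 7.24e-06). Between the dual and the CDK6 knockdown, 1 member, RPS4X, changed its share of the pool with all libraries, from 2.60% ± 0.114 to 2.22% ± 0.0284 (log2 change -0.22, limma adjusted p = 0.0293; 6.86% of tested genes), and 10 members did without NT3 replicate 3 (27.2%). In both fits the called share of members was below that of tested genes.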

How the data were processed

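RNA was sequenced in 21 IMR90 libraries, 3 in each of 7 groups, which were taken from the labels. Values in the deposited table are a signal per gene in each library, namely read counts after division by the library's size factor, as the authors scaled them: 100% of values in every library returned whole reads (tolerance 0.01) when multiplied back. On these reads edgeR called 7984 genes in senescent controls against proliferating cells, and limma 7945. Per the submitters' processing notes, Trimmomatic 0.38.1, HISAT2 2.2.1, featureCounts 2.0.3 and DESeq2 2.11.40.8 were used with genome build hg38. The annotation, strand setting and handling of shared reads are not given in the sources used here. Column names give a group without numbering its replicates, so replicates are named in column order.

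A gene was tested if 3 or more libraries reached a value of 10 (11579 genes). The linear model of limma 3.58.1 (R 4.3.3) described log2(value + 1) by group means, and all 7 groups contributed to its moderated, trended variances. Tests were two-sided, with Benjamini-Hochberg adjustment over all tested genes in each comparison, and the threshold was 0.05. Fold changes are on the log2(value + 1) scale. Alternatives were pseudocounts of 0.1 and 10, other filters, median centring, quantile normalization, scaling to the listed genes' total, the compared groups alone, NT3 or NT4 alone, each library left out, and edgeR 4.0.16 and DESeq2 1.42.0 on recovered reads. The fits were tested on simulated data. Coordinates, coding lengths and overlaps came from GENCODE v44 for hg38, and start windows from RefSeq (GRCh38.p14). Of 73 members, 59 matched a window, and the starts of the other 14 are not analysed here. Results for some genes that the naming rule takes are not reported here.

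Members, gene lists and tests were chosen with earlier results of these data known. Named members are a fixed panel of 16 genes and, per comparison, the 3 largest rises and 3 largest falls past the threshold, and from each gene list at most 6 of its largest changes. RPLP2 in the dual against the CDK6 knockdown and RPS4X in CDK6 against CDK4 knockdown belong to the panel, and RPS19, RPL41 and RPL5 are also followed outside the comparison that named them.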

Additional observations from a re-analysis of the deposited data

Results flagged for a closer look

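The share of reads on ribosomal protein genes was 4.13% in NT3 replicate 3 and 2.70 to 2.95% in the other 5 control libraries, a gap of 0.825 of the whole range of the 6 libraries, above Dixon's 95% critical value for that number. Chance flags about 1 in 20 such groups. The same library held the highest value of 47 of 73 members by the same criterion, a count made for members only.

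The dual effect differed from the added CDK4 and CDK6 effects for 2 members with all libraries and for 38 without NT3 replicate 3, in each case upwards.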

How the results depend on the processing

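For the named members, 439 values under alternatives kept direction and side of the threshold, 98 kept direction and lost the call, and 0 reversed. The rest counts members past the threshold in either direction, and the cause of each move was not tested. Shares over tested genes are not given for these alternatives, so the counts describe how calls moved and not how members compare with other genes. Senescent controls against proliferating cells gave 38, against 24 with median centring, and 30 to 63 with 1 library left out. Combined with leaving out NT3 replicate 3, it was 63 with edgeR. NT4 against NT3 gave 9, against 5 with no filter, 14 with scaling to the listed total, 0 with compared groups alone, 5 with irradiated libraries alone, 16 with DESeq2, and 2 to 49 with 1 library left out (medians -0.32 to 0.016). Combined with leaving out NT3 replicate 3, it was 5 with quantile normalization, 5 with scaling to the listed total and the median was 0.013 with quantile normalization, -0.0025 with scaling to the listed total, 0.017 with edgeR. CCND1 knockdown gave 1, against 13 with quantile normalization, 11 with scaling to the listed total, 0 with compared groups alone, 8 with NT3 alone as control, 0 with NT4 alone as control, 2 with edgeR, 3 with DESeq2, and 0 to 13 with 1 library left out (medians -0.14 to 0.018). Its median was 0.0077 with NT4 alone as control. Combined with leaving out NT3 replicate 3, it was 19 with quantile normalization, 18 with scaling to the listed total, 13 with edgeR and the median was 0.024 with edgeR. CDK4 knockdown gave 7, against 3 with no filter, 11 with quantile normalization, 0 with compared groups alone, 24 with NT3 alone as control, 1 with NT4 alone as control, 3 with irradiated libraries alone, 12 with DESeq2, and 1 to 29 with 1 library left out. Also without NT3 replicate 3, it was 16 with quantile normalization, 18 with scaling to the listed total, 12 with edgeR. CDK6 knockdown gave 17, against 10 with no filter, 45 with quantile normalization, 45 with scaling to the listed total, 3 with compared groups alone, 37 with NT3 alone as control, 1 with NT4 alone as control, 11 with irradiated libraries alone, 29 with DESeq2, and 3 to 50 with 1 library left out. Also without NT3 replicate 3, it was 49 with quantile normalization, 51 with scaling to the listed total. Dual knockdown gave 2, against 1 with pseudocount of 0.1, 1 with no filter, 15 with quantile normalization, 14 with scaling to the listed total, 0 with compared groups alone, 5 with NT3 alone as control, 1 with irradiated libraries alone, and 1 to 34 with 1 library left out (medians -0.071 to 0.102). Its median was -0.13 with quantile normalization, -0.12 with scaling to the listed total, -0.11 with NT3 alone as control, -0.013 with edgeR, -0.028 with DESeq2. Also without NT3 replicate 3, it was 25 with quantile normalization, 22 with scaling to the listed total, 37 with edgeR and the median was -0.030 with quantile normalization, -0.026 with scaling to the listed total. CDK6 against CDK4 knockdown gave 0, against 12 with compared groups alone, and 0 to 12 with 1 library left out (medians -0.067 to 0.0094). With that library left out too, it was 21 with quantile normalization, 20 with scaling to the listed total, 12 with edgeR. Dual against CDK6 knockdown gave 2, against 1 with no filter, 0 with quantile normalization, 0 with scaling to the listed total, 42 with compared groups alone, 0 with irradiated libraries alone, 6 with DESeq2, and 0 to 46 with 1 library left out. With that library left out too, it was 22 with quantile normalization, 22 with scaling to the listed total, 43 with edgeR. The dual effect against the added single effects gave 2, against 0 with no filter, 1 with quantile normalization, 0 with scaling to the listed total, 0 with compared groups alone, 30 with NT3 alone as control, 0 with NT4 alone as control, 0 with irradiated libraries alone, 4 with edgeR, 9 with DESeq2, and 0 to 38 with 1 library left out. With that library left out too, it was 27 with quantile normalization, 24 with scaling to the listed total, 38 with edgeR and the median was 0.18 with scaling to the listed total. Changes in shares of the pool between dual and CDK6 knockdown went from 1 to 10 without NT3 replicate 3. With 1 library left out, counts against the controls were highest without NT3 replicate 2 for CDK4 (29) and CDK6 knockdown (50), and without NT3 replicate 3 for CCND1 (13) and dual knockdown (34). Dual against CDK6 knockdown had 0 without CDK6 replicate 1 or 3 or dual replicate 1 or 3.

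The columns carry no replicate number from the labels, so those numbers could not serve as a block. A replicate block by runs of library numbers in the headers instead, chosen after seeing the data, gave 4 members for NT4 against NT3, 3 for CDK4, 11 for CDK6 and 1 for dual knockdown, and 0 for dual against CDK6 knockdown and for the interaction. Each run of 6 numbers held 1 library of each irradiated group. Deviations of libraries of the same run had a median correlation of 0.04 and those of other runs -0.02. Of 18 libraries, 8 correlated best with their own run. These values do not settle whether the runs pair the libraries.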

Other observations

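Regulators of TOP translation and the mitochondrial genome were read in the same fit. Of 14 tested regulators of ribosome and TOP translation, 5 fell and 3 rose in senescent controls, with 36.1% lower and 32.6% higher among tested genes. LARP1, which binds TOP tracts, was at 3763 ± 588 against 4486 ± 68.3, log2 fold change -0.27, limma adjusted p = 0.0112, and its change was -0.17 without NT3 replicate 3. Transcripts of mitochondrial DNA, which encode respiratory chain subunits, rose in 10 of 13 cases: ND6 was at 8098 ± 1681 against 3778 ± 720.0, log2 fold change 1.09, limma adjusted p = 1.24e-07. In the CDK6 knockdown MRPS24 of the mitochondrial small subunit fell (16.3 ± 4.14 against 39.0 ± 16.2, log2 fold change -1.15, limma adjusted p = 0.00193), and TAF1D, a subunit of the selectivity factor for RNA polymerase I, fell (455 ± 27.6 against 764 ± 163, log2 fold change -0.73, limma adjusted p = 6.88e-06). MRPS24 had low counts, near the filter value of 10, and its NT3 libraries spread widely (43.7 ± 22.0). TAF1D also fell in the dual knockdown (389.6 ± 32.5 against 764 ± 163, log2 fold change -0.95, limma adjusted p = 1.37e-07), where EIF4EBP2, a repressor of cap-dependent translation, rose (3790 ± 125 against 2538 ± 245, log2 fold change 0.58, limma adjusted p = 5.14e-07). Both genes moved the same way with CDK4 knockdown, TAF1D by -0.35 (limma adjusted p = 0.0234) and EIF4EBP2 by 0.40 (limma adjusted p = 0.000326).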
